A study of Homo sapiens with 7 samples.

Results

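The RNA levels of 35 genes of glycolysis, glucose uptake, lactate handling and the mitochondrial entry of pyruvate were read among 23262 genes with values, in 7 RNA-seq libraries of human embryonic stem cells (hESC) and of cells sorted while they differentiated toward heart muscle. The genes were taken by name. Of 36 names, pyruvate kinase M was given under both of its symbols, and the table lists it as PKM2, so that all 35 genes were found. The values are FPKM, fragments counted per transcript length and per mapped total of the library, which can be set side by side between genes.

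All libraries came from the hESC line H3 with 2 reporters, eGFP for NKX2-5, which encodes a transcription factor of the early heart, and mCherry for alpha-MHC, the heart myosin encoded by MYH6. The day 0 library is undifferentiated hESC. On day 3 of cardiac differentiation, cells positive for the surface proteins CD13 and ROR2 (CD13+/ROR2+, labelled mesoderm progenitor) and cells negative for both (CD13-/ROR2-, labelled endoderm progenitor) were collected. The day 7 libraries are CD13+/ROR2+ cells that were positive (NKX2-5+, labelled cardiac progenitor) or negative (NKX2-5-, of unknown type per the labels) for the NKX2-5 reporter. The day 14 libraries are CD13+/ROR2+/NKX2-5+ cells that were positive (aMHC+, labelled cardiomyocytes) or negative (aMHC-, of unknown type per the labels) for the alpha-MHC reporter. Each group is 1 library of 1 line. No difference has a replicate check, and no test, p-value or standard deviation is given. In sorted bulk RNA, fewer cells of a kind and less RNA per cell cannot be told apart.

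The labels were set against marker genes. The 8 cardiomyocyte markers summed to 2779 FPKM in day 7 NKX2-5+, 599.6 in day 7 NKX2-5-, 4832 in day 14 aMHC+ and 1795 in day 14 aMHC-, with all 8 at 1 FPKM or more in each of these 4 libraries. The 6 fibroblast markers summed to 43.7 FPKM in day 7 NKX2-5+ and 689 in day 7 NKX2-5-, and to 347 in day 14 aMHC+ and 719 in day 14 aMHC-. Markers went against the label of day 3 CD13-/ROR2-, where the 6 pluripotency markers summed to 702 FPKM, near the 686 of hESC. Of these, POU5F1 (64.8 FPKM, against 153.8 in hESC) and NANOG were lower there than in hESC. SOX2 (68.0 FPKM, against 26.3 in hESC) and the others were higher. The 6 mesoderm markers summed to 737 FPKM in day 3 CD13+/ROR2+, 135 in day 3 CD13-/ROR2- and 1.73 in hESC. The 6 definitive endoderm markers summed to 1788 FPKM in day 3 CD13+/ROR2+, against 16.0 in day 3 CD13-/ROR2-, and most of both sums is CER1, at 1736 FPKM in the double-positive library and 11.7 in the double-negative one. SOX17 had 17.8 FPKM in day 3 CD13+/ROR2+, against 2.71 in day 3 CD13-/ROR2-, GSC, CXCR4 and FOXA2 were also lower in CD13-/ROR2-, and FOXA1 was under 0.1 FPKM in both. That library is called by its sort here. Depth was known only relative to hESC and was lowest in day 7 NKX2-5+, at 0.602 times, with 9699 genes at 1 FPKM or more, against 10656 to 10830 in the other 6 libraries. It could not be placed for day 7 NKX2-5-. The part of depth and of other cell types in the results below was not tested.

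Glycolysis splits glucose into pyruvate in the cytosol and yields ATP without oxygen. Pyruvate is then either reduced to lactate and exported, or carried into mitochondria and oxidised through the pyruvate dehydrogenase complex. Many steps are served by several isozymes, encoded by separate genes, whose use differs between tissues. Pluripotent stem cells are known for a high glycolytic rate, and heart muscle cells turn to mitochondrial oxidation as they mature.

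Many of the common glycolytic forms, such as LDHA, ENO1, PGK1 and SLC2A3, stood at their lowest level on day 7 and were high again on day 14. The muscle forms ENO3 and PGAM2 were low in hESC and on day 3 and high in day 7 NKX2-5+ and day 14 aMHC+. The genes other than GAPDH summed to 1406 FPKM in hESC, 1677 in day 3 CD13+/ROR2+, 1813 in day 3 CD13-/ROR2-, 799 in day 7 NKX2-5+, 636 in day 7 NKX2-5-, 2129 in day 14 aMHC+ and 2691 in day 14 aMHC-. As deposited, the 2 day 7 sums were the lowest and the 2 day 14 sums the highest. After the median-ratio scaling described below, the sum was 1163 scaled FPKM in day 7 NKX2-5+, 687 in day 7 NKX2-5- and 1314 in hESC. With GAPDH kept in, the 35 genes made up 2.30% of the FPKM outside small RNA and histone symbols in day 7 NKX2-5+. That share was 1.28% in day 7 NKX2-5-, 1.70% in hESC, 2.23% in day 14 aMHC+ and highest, 2.48%, in day 14 aMHC-. Of the 35 genes, 29 reached 5 FPKM in at least 1 library and 6 did not (SLC2A4, PFKFB1, PFKFB2, PFKFB4, BPGM and PDK4). The lowest library was a day 7 one for 21 of the 29 genes (72.4%), against 53.5% of the 7716 genes of the whole table that reached 5 FPKM. A day 14 library was the highest for 18 of the 29 (62.1%), against 38.7% of all such genes. After scaling the libraries to a common median ratio over 7780 genes expressed in all 7, the lowest library was a day 7 one for 16 of the 29 (55.2%), against 28.3% of all genes. A day 14 library was then the highest for 13 (44.8%), against 27.9%.

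**Figure D1:**
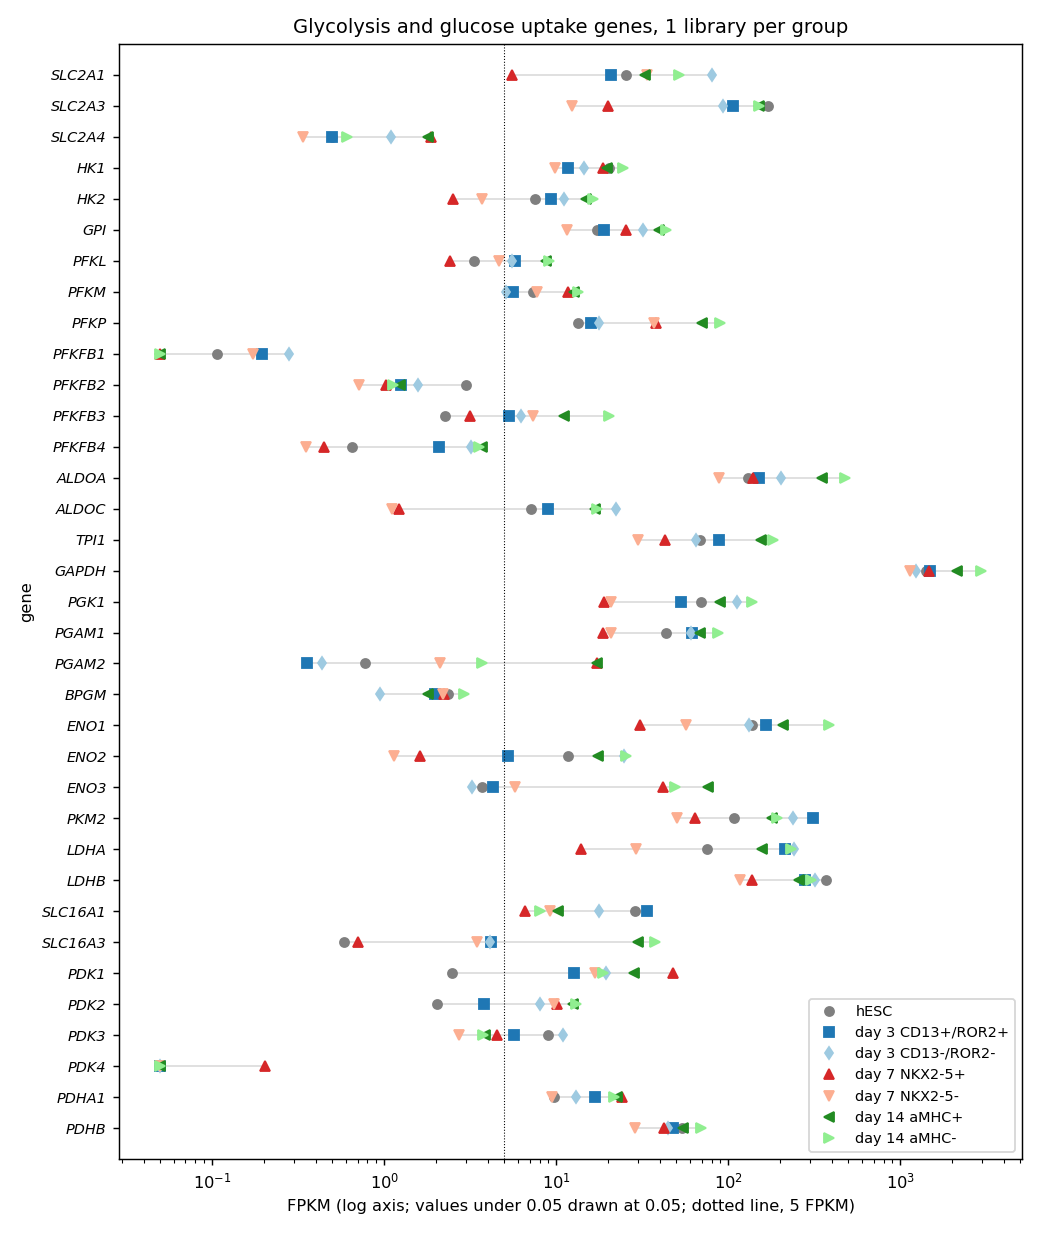
FPKM (log axis) of the 35 genes in the 7 libraries, 1 point per library, with values under 0.05 drawn at 0.05 and a dotted line at 5 FPKM. The red day 7 points lie at the left end for LDHA, ENO1, ALDOC and SLC2A3 and the green day 14 points at the right end for ALDOA, TPI1 and PFKP, while ENO3 and PGAM2 have their low points in hESC and on day 3.

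Because each FPKM depends on how its library was scaled, levels were also given as a percentage of GAPDH of the same library. GAPDH, which oxidises glyceraldehyde 3-phosphate, was the most abundant of the 35 genes everywhere. It stood at 1409.9 FPKM in hESC, 1499 in day 3 CD13+/ROR2+, 1229 in day 3 CD13-/ROR2-, 1469.9 in day 7 NKX2-5+, 1144 in day 7 NKX2-5-, 2143 in day 14 aMHC+ and 2964 in day 14 aMHC-. As deposited, its levels lie within a range of 2.59-fold. It ranked among the 14 most abundant genes of every library when small RNA and histone symbols were left out. After median-ratio scaling GAPDH stood at 2140 scaled FPKM in day 7 NKX2-5+, against 1356 in day 3 CD13+/ROR2+. A percentage of GAPDH thus sets day 7 NKX2-5+ lower against day 3 CD13+/ROR2+ than that scaling does. LDHA, the lactate dehydrogenase subunit common in glycolytic tissue, was 5.35% in hESC, 14.4% in day 3 CD13+/ROR2+, 19.5% in day 3 CD13-/ROR2-, 0.955% in day 7 NKX2-5+, 2.56% in day 7 NKX2-5-, 7.36% in day 14 aMHC+ and 7.86% in day 14 aMHC- of the GAPDH level. ENO1, the enolase of most tissues, was 9.77% in hESC, 11.1% in day 3 CD13+/ROR2+, 10.8% in day 3 CD13-/ROR2-, 2.09% in day 7 NKX2-5+, 4.97% in day 7 NKX2-5-, 9.75% in day 14 aMHC+ and 12.9% in day 14 aMHC-. Both day 7 libraries lie below the other 5 for each of these genes, and day 7 NKX2-5+ is the lowest. PGK1, which makes ATP from 1,3-bisphosphoglycerate, was 4.94% in hESC, 3.53% in day 3 CD13+/ROR2+, 9.15% in day 3 CD13-/ROR2-, 1.29% in day 7 NKX2-5+, 1.82% in day 7 NKX2-5-, 4.17% in day 14 aMHC+ and 4.66% in day 14 aMHC- of GAPDH, with the same order of day 7 below all other libraries.

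**Figure D2:**
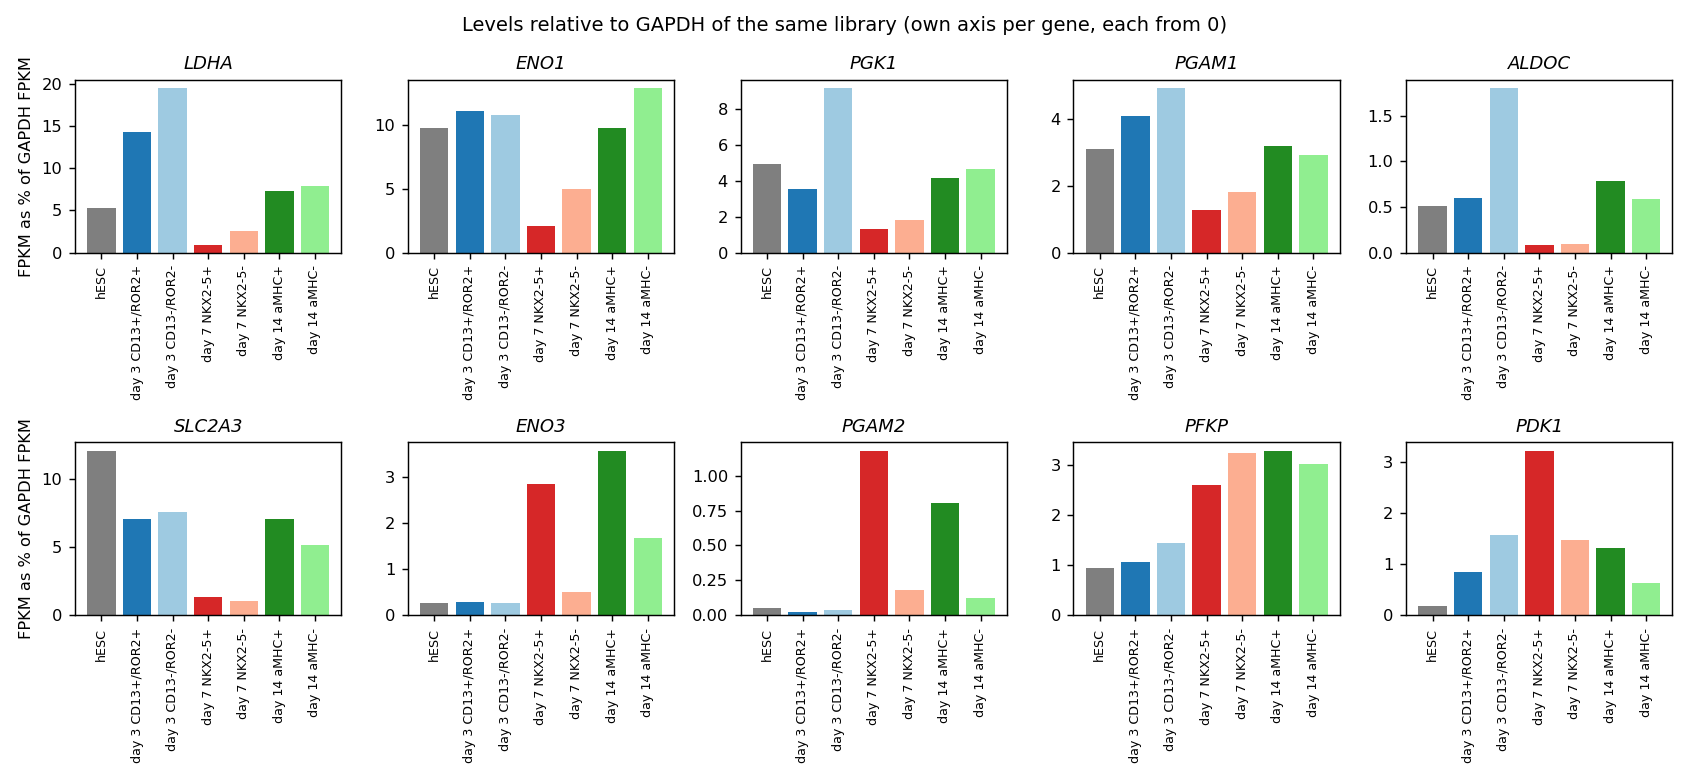
FPKM of 10 genes as a percentage of the GAPDH FPKM of the same library, 1 bar per library, each panel with its own axis from 0. LDHA is at 0.955% in day 7 NKX2-5+ and 7.36% in day 14 aMHC+, while ENO3, PGAM2 and PFKP have their low bars in hESC and on day 3.

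The promoters of LDHA, PGK1 and ALDOC, which were lower in both day 7 libraries than in the other 5, and of the muscle gene PGAM2, are shown for the motifs they hold. The letters ACGTG and GCGTG are the core that hypoxia-inducible factors bind, and LDHA, PGK1 and ALDOC are textbook targets of these factors. The sequences are from RefSeq (GRCh38.p14, another build than the hg19 named in the submitters' processing notes), 5′ to 3′ on the strand of the gene, 250 bases before to 50 bases after the annotated start. LDHA has 2 annotated starts. The upstream one, which holds more matches, is shown, and the window of the other holds no match of ACGTG and 1 of GCGTG. Capitals mark ACGTG or GCGTG on either strand in LDHA (chr11:18394313-18394612, plus strand), PGK1 (chrX:78103998-78104297, plus strand) and ALDOC (chr17:28576846-28577145, minus strand), and the TATA box letters TATAAA in PGAM2 (chr7:44065518-44065817, minus strand).
LDHA: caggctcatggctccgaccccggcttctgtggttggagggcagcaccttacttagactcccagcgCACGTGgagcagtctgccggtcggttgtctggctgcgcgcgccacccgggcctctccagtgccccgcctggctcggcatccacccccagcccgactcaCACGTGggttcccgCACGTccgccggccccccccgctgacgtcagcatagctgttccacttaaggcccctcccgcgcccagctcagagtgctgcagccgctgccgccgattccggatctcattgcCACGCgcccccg
PGK1: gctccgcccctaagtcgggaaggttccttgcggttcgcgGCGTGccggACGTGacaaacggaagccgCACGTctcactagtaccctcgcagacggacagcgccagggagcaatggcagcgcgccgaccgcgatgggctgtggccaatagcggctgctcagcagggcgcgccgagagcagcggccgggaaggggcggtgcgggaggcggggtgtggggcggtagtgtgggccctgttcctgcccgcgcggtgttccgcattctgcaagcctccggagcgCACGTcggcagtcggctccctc
ALDOC: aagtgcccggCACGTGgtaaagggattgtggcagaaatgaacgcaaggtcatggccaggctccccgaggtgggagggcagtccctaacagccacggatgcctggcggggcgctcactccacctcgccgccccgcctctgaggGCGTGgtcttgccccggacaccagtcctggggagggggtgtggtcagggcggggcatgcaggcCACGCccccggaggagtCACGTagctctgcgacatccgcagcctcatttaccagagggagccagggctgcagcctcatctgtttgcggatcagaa
PGAM2: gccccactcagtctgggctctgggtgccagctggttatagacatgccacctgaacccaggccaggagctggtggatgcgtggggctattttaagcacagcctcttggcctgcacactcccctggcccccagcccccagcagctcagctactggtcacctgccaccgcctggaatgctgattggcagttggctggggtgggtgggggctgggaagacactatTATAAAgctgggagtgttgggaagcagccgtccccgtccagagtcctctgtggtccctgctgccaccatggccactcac
The LDHA window shown holds 5 matches of ACGTG and 1 of GCGTG, the PGK1 window 3 and 1, and the ALDOC window 3 and 2. The palindrome CACGTG counts as 2 overlapping matches of ACGTG, 1 on each strand. The PGAM2 window holds 1 match of TATAAA, none of ACGTG and 1 of GCGTG. The windows shown do not stand for all genes with low day 7 levels. PGAM1 was also lower in both day 7 libraries than in the other 5, and its 1 window holds no match of ACGTG or GCGTG. The GAPDH window holds 2 matches of ACGTG, while GAPDH was higher in day 7 NKX2-5+ than in hESC. A link between these motifs and the day 7 levels was not tested. RefSeq windows were matched for 31 of the 35 genes, with 61 distinct starts, some of which overlap. SLC2A3, SLC2A4, PFKFB2 and SLC16A1 were not matched. ACGTG on either strand was in 22 of the 61 windows (36.1%), against 21.4% of 35116 windows of all genes. GCGTG was in 25 (41.0%), against 36.5%. Either of these was in 38 (62.3%), against 48.4%, and TATAAA on either strand was in 5 (8.20%), against 11.5%. The windows of the 61 starts had a median GC content of 66.0%, against 58.7% in all windows, and a match is a description of letters, not a bound site.

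Glucose enters through transporters of the SLC2A family. SLC2A3, the high-affinity transporter GLUT3, stood at 170.1 FPKM in hESC, 106 in day 3 CD13+/ROR2+, 93.1 in day 3 CD13-/ROR2-, 19.9 in day 7 NKX2-5+, 12.3 in day 7 NKX2-5-, 151 in day 14 aMHC+ and 152 in day 14 aMHC-. It was low in both day 7 libraries and at or above 93.1 FPKM in the other 5. Relative to GAPDH it was 1.35% in day 7 NKX2-5+ and 1.07% in day 7 NKX2-5-, against 7.07% in day 3 CD13+/ROR2+. SLC2A1, the widely expressed GLUT1, stood at 25.3 FPKM in hESC, 20.9 in day 3 CD13+/ROR2+, 80.0 in day 3 CD13-/ROR2-, 5.53 in day 7 NKX2-5+, 33.8 in day 7 NKX2-5-, 32.7 in day 14 aMHC+ and 52.1 in day 14 aMHC-. It was lowest in day 7 NKX2-5+ and highest in day 3 CD13-/ROR2-, and so did not share the day 7 pattern of SLC2A3. The day 7 fractions differed 6.12-fold in SLC2A1, lower in NKX2-5+ (log2 ratio -2.42). The share of SLC2A1 in the sum of the 3 transporters was 12.9% in hESC, 16.4% in day 3 CD13+/ROR2+, 45.9% in day 3 CD13-/ROR2-, 20.3% in day 7 NKX2-5+, 72.8% in day 7 NKX2-5-, 17.6% in day 14 aMHC+ and 25.5% in day 14 aMHC-. SLC2A1 exceeded SLC2A3 in day 7 NKX2-5- alone, where the share of SLC2A3 was 26.5%. SLC2A4, the insulin-responsive GLUT4 of muscle and fat, stayed low, from 0.336 FPKM in day 7 NKX2-5- to 1.88 FPKM in day 7 NKX2-5+. Its next highest level was 1.80 FPKM in day 14 aMHC+, and values of this size rest on few reads. SLC2A14, a close copy of SLC2A3 with which reads may be shared, ranged from 0.714 FPKM in day 7 NKX2-5- to 9.54 FPKM in hESC.

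Hexokinase traps glucose as glucose 6-phosphate. HK1, the constitutive form, ranged only from 9.87 FPKM in day 7 NKX2-5- to 24.4 FPKM in day 14 aMHC-. HK2, the regulated form of muscle and growing cells, stood at 7.52 FPKM in hESC, 9.31 in day 3 CD13+/ROR2+, 11.1 in day 3 CD13-/ROR2-, 2.53 in day 7 NKX2-5+, 3.70 in day 7 NKX2-5-, 14.9 in day 14 aMHC+ and 16.3 in day 14 aMHC-. It was lowest in the 2 day 7 libraries and highest in the 2 day 14 libraries. The share of HK2 in HK1 plus HK2 was 27.2% in hESC, 44.4% in day 3 CD13+/ROR2+, 11.9% in day 7 NKX2-5+ and 43.2% in day 14 aMHC+. GPI, which converts glucose 6-phosphate to fructose 6-phosphate, ranged from 11.6 FPKM in day 7 NKX2-5- to 43.7 FPKM in day 14 aMHC-.

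Phosphofructokinase commits the sugar to glycolysis. PFKP, the platelet form, stood at 13.4 FPKM in hESC, 16.0 in day 3 CD13+/ROR2+, 17.8 in day 3 CD13-/ROR2-, 38.1 in day 7 NKX2-5+, 37.0 in day 7 NKX2-5-, 70.4 in day 14 aMHC+ and 89.2 in day 14 aMHC-. As deposited, both day 7 libraries lie above hESC and day 3, and both day 14 libraries above day 7. The log2 ratio of day 14 aMHC+ over day 7 NKX2-5+ was 0.87, and 0.26 after median-ratio scaling. Relative to GAPDH, PFKP was 2.60% in day 7 NKX2-5+, 3.23% in day 7 NKX2-5-, 3.28% in day 14 aMHC+ and 3.01% in day 14 aMHC-. In day 14 aMHC+ it was 5.25-fold the hESC level (log2 ratio 2.31). Its share of the 3 forms was 55.8% in hESC, 58.5% in day 3 CD13+/ROR2+, 62.6% in day 3 CD13-/ROR2-, 73.1% in day 7 NKX2-5+, 74.9% in day 7 NKX2-5-, 76.6% in day 14 aMHC+ and 79.8% in day 14 aMHC-. PFKM, the muscle form, ranged from 5.12 FPKM in day 3 CD13-/ROR2- to 13.4 FPKM in day 14 aMHC-, with 11.7 FPKM in day 7 NKX2-5+ and 12.7 FPKM in day 14 aMHC+. Its share of the family was 13.9% in day 14 aMHC+, against 30.4% in hESC, so the platelet form and not the muscle form took the larger part in the cardiomyocyte library. PFKL, the liver form, ranged from 2.40 FPKM in day 7 NKX2-5+ to 9.09 FPKM in day 14 aMHC-.

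The PFKFB enzymes make and break fructose 2,6-bisphosphate, the activator of phosphofructokinase. PFKFB3, the form whose kinase activity far exceeds its phosphatase activity, stood at 2.27 FPKM in hESC, 5.31 in day 3 CD13+/ROR2+, 6.23 in day 3 CD13-/ROR2-, 3.17 in day 7 NKX2-5+, 7.28 in day 7 NKX2-5-, 11.2 in day 14 aMHC+ and 20.4 in day 14 aMHC-. It was the main form in every library but hESC, with 69.2% of the family in day 14 aMHC+ and 81.2% in day 14 aMHC-. In hESC the heart form PFKFB2 was the main one, at 49.7% and 2.99 FPKM. It stood at 1.02 FPKM in day 7 NKX2-5+ and 1.24 FPKM in day 14 aMHC+. PFKFB4, a hypoxia-inducible form, ranged from 0.352 FPKM in day 7 NKX2-5- to 3.73 FPKM in day 14 aMHC+. PFKFB1, the liver and muscle form, was listed at 0 in day 7 NKX2-5+ and day 14 aMHC+ and reached at most 0.279 FPKM. These shares rest on low levels and move with a small added value.

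Aldolase cleaves fructose 1,6-bisphosphate. ALDOA, the muscle and general form, stood at 130.4 FPKM in hESC, 151 in day 3 CD13+/ROR2+, 201 in day 3 CD13-/ROR2-, 139.9 in day 7 NKX2-5+, 88.9 in day 7 NKX2-5-, 350.2 in day 14 aMHC+ and 478 in day 14 aMHC-. It made up between 90.1% and 99.1% of ALDOA plus ALDOC. ALDOC, the brain form, stood at 7.15 FPKM in hESC, 8.95 in day 3 CD13+/ROR2+, 22.2 in day 3 CD13-/ROR2-, 1.23 in day 7 NKX2-5+, 1.10 in day 7 NKX2-5-, 16.7 in day 14 aMHC+ and 17.3 in day 14 aMHC-. It was near 1 FPKM in both day 7 libraries and above 7 FPKM in the other 5. Day 7 NKX2-5+ was 7.30-fold lower than day 3 CD13+/ROR2+ (log2 ratio -2.16), and day 14 aMHC+ was 13.6-fold higher than day 7 NKX2-5+ (log2 ratio 2.99). TPI1, which interconverts the triose phosphates, stood at 68.4 FPKM in hESC, 88.4 in day 3 CD13+/ROR2+, 65.4 in day 3 CD13-/ROR2-, 42.7 in day 7 NKX2-5+, 30.1 in day 7 NKX2-5-, 156 in day 14 aMHC+ and 182 in day 14 aMHC-. PGK1 stood at 69.6 FPKM in hESC, 52.8 in day 3 CD13+/ROR2+, 112 in day 3 CD13-/ROR2-, 18.9 in day 7 NKX2-5+, 20.8 in day 7 NKX2-5-, 89.4 in day 14 aMHC+ and 138 in day 14 aMHC-. Both were lowest in the 2 day 7 libraries and highest in day 14 aMHC-, and the day 14 aMHC+ library exceeded day 7 NKX2-5+ by 3.65-fold for TPI1 and 4.73-fold for PGK1. After median-ratio scaling TPI1 stood at 62.1 scaled FPKM in day 7 NKX2-5+, near 62.5 in day 3 CD13-/ROR2- and 63.9 in hESC. Its log2 ratio of day 14 aMHC+ over day 7 NKX2-5+ was 1.85 before and 1.24 after this scaling.

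Phosphoglycerate mutase and enolase carry the sugar on to phosphoenolpyruvate, and here the isozyme shares differed widely between libraries. PGAM2, the muscle mutase, stood at 0.771 FPKM in hESC, 0.356 in day 3 CD13+/ROR2+, 0.435 in day 3 CD13-/ROR2-, 17.3 in day 7 NKX2-5+, 2.10 in day 7 NKX2-5-, 17.2 in day 14 aMHC+ and 3.68 in day 14 aMHC-. It was high in day 7 NKX2-5+ and day 14 aMHC+ and low in the other 5 libraries. Its day 7 NKX2-5+ level was 8.24-fold that of day 7 NKX2-5- (log2 ratio 2.56) and 48.6-fold that of day 3 CD13+/ROR2+ (log2 ratio 3.76), whose value rests on few reads. The day 14 aMHC+ library was 4.68-fold higher in PGAM2 than aMHC- (log2 ratio 1.96, just under 2). PGAM1, the form of most tissues, stood at 43.8 FPKM in hESC, 61.5 in day 3 CD13+/ROR2+, 60.7 in day 3 CD13-/ROR2-, 18.8 in day 7 NKX2-5+, 20.9 in day 7 NKX2-5-, 68.4 in day 14 aMHC+ and 86.7 in day 14 aMHC-. It was low in both day 7 libraries. The share of PGAM2 in the mutases was 1.73% in hESC, 0.576% in day 3 CD13+/ROR2+, 0.712% in day 3 CD13-/ROR2-, 47.9% in day 7 NKX2-5+, 9.14% in day 7 NKX2-5-, 20.1% in day 14 aMHC+ and 4.08% in day 14 aMHC-. BPGM, which makes 2,3-bisphosphoglycerate, stayed between 0.951 and 2.91 FPKM. PGAM4, a retrocopy of PGAM1 that may share its reads, ranged from 1.13 FPKM in day 7 NKX2-5+ to 6.94 FPKM in day 14 aMHC-.

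ENO3, the muscle enolase, stood at 3.72 FPKM in hESC, 4.31 in day 3 CD13+/ROR2+, 3.23 in day 3 CD13-/ROR2-, 41.6 in day 7 NKX2-5+, 5.75 in day 7 NKX2-5-, 76.3 in day 14 aMHC+ and 49.3 in day 14 aMHC-. It was low in hESC, on day 3 and in day 7 NKX2-5-, and high in day 7 NKX2-5+ and in both day 14 libraries. Day 7 NKX2-5+ was 7.23-fold higher than NKX2-5- (log2 ratio 2.66), and day 14 aMHC+ was 20.5-fold higher than hESC (log2 ratio 4.03). ENO1 stood at 138 FPKM in hESC, 167 in day 3 CD13+/ROR2+, 133 in day 3 CD13-/ROR2-, 30.7 in day 7 NKX2-5+, 56.9 in day 7 NKX2-5-, 209 in day 14 aMHC+ and 383 in day 14 aMHC-. Its lowest library was day 7 NKX2-5+, where ENO3 was high. ENO2, the neuronal form, stood at 11.7 FPKM in hESC, 5.24 in day 3 CD13+/ROR2+, 24.8 in day 3 CD13-/ROR2-, 1.61 in day 7 NKX2-5+, 1.14 in day 7 NKX2-5-, 17.6 in day 14 aMHC+ and 25.5 in day 14 aMHC-. Its low values were those of the 2 day 7 libraries and, less so, of day 3 CD13+/ROR2+. The share of ENO3 in the 3 enolases was 2.43% in hESC, 2.44% in day 3 CD13+/ROR2+, 2.01% in day 3 CD13-/ROR2-, 56.3% in day 7 NKX2-5+, 9.01% in day 7 NKX2-5-, 25.2% in day 14 aMHC+ and 10.8% in day 14 aMHC-. Day 7 NKX2-5+ was the only one of the 7 libraries in which ENO3 exceeded ENO1. On day 14, ENO1 was again the main enolase in aMHC+, at 69.0%, with ENO3 at 76.3 FPKM there and 41.6 FPKM in day 7 NKX2-5+.

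ENO3 and PGAM2 are also genes of skeletal muscle. Of 5 skeletal muscle markers, none reached 1 FPKM in day 7 NKX2-5+, with a sum of 0.0644 FPKM, or in day 14 aMHC+, with a sum of 0.615 FPKM, and MYOD1 was listed at 0 in all 7 libraries. The cardiomyocyte marker sums given above were also higher in day 7 NKX2-5+ than in NKX2-5- and in day 14 aMHC+ than in aMHC-. The part of skeletal or heart muscle cells in the ENO3 and PGAM2 levels was not tested.

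**Figure D3:**
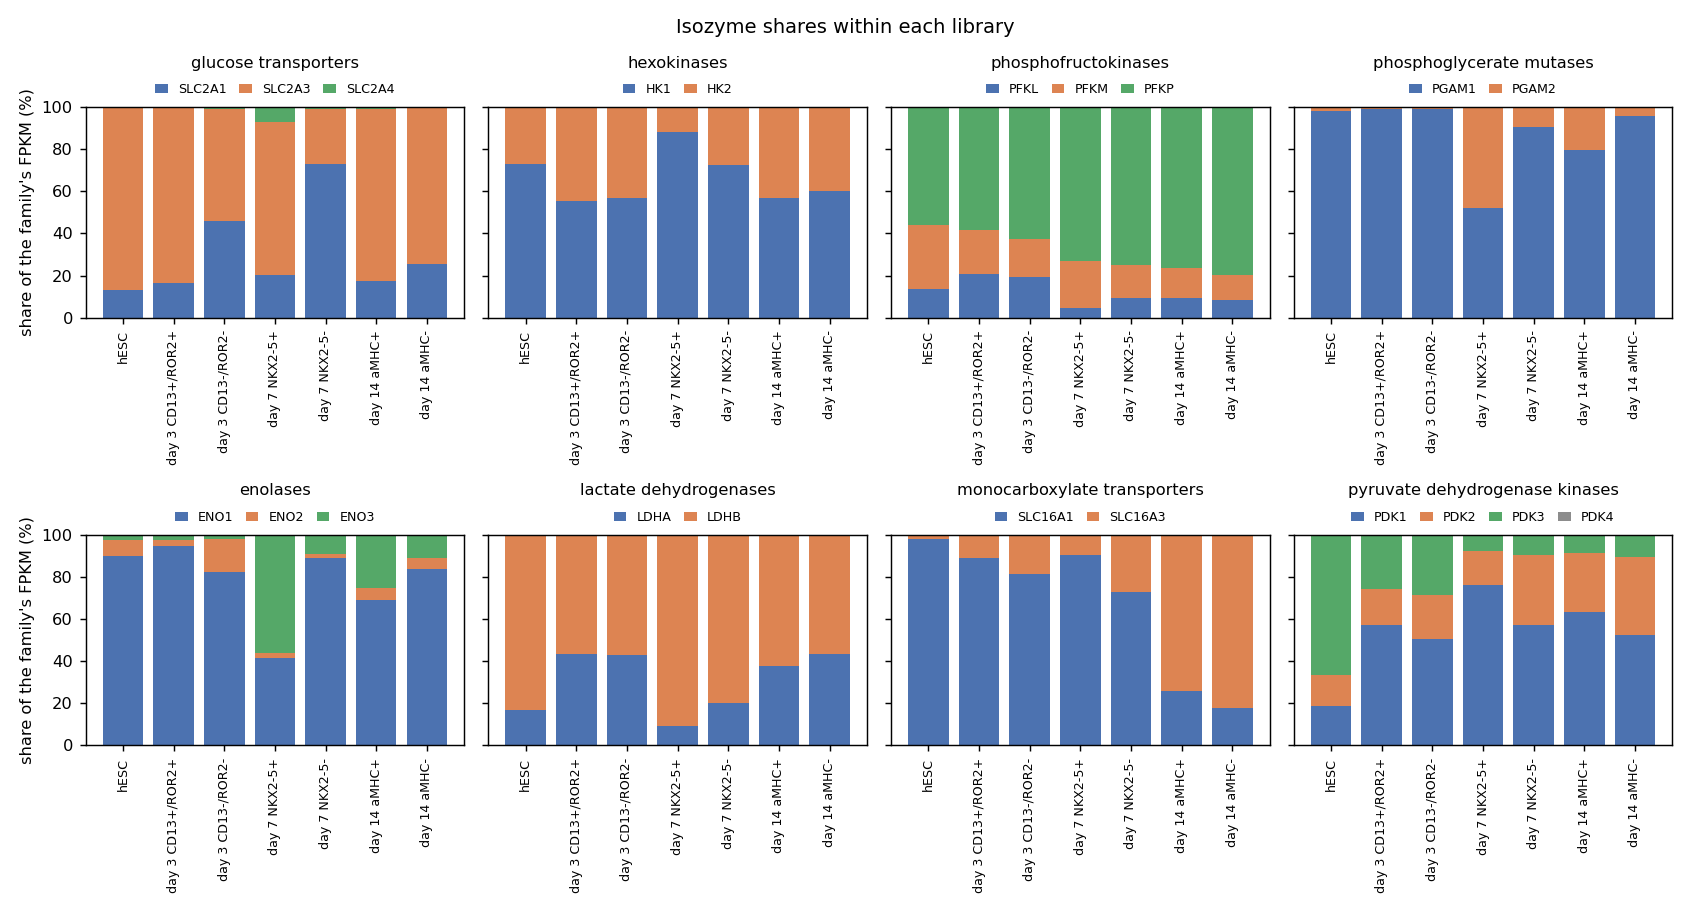
Stacked bars of the share of each isozyme in the FPKM sum of its family, in percent, for 8 families in the 7 libraries. ENO3 takes 56.3% of the enolases and PGAM2 47.9% of the mutases in day 7 NKX2-5+, LDHA is down to 9.21% of the lactate dehydrogenases there, and SLC16A3 is the main monocarboxylate transporter in the 2 day 14 libraries alone.

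Pyruvate kinase M, listed as PKM2, stood at 108 FPKM in hESC, 312 in day 3 CD13+/ROR2+, 238 in day 3 CD13-/ROR2-, 64.1 in day 7 NKX2-5+, 50.3 in day 7 NKX2-5-, 181 in day 14 aMHC+ and 191 in day 14 aMHC-. The row does not tell the adult muscle form PKM1 from PKM2, since both are spliced from the same gene. It was highest in the 2 day 3 libraries and lowest in the 2 day 7 libraries. Day 7 NKX2-5+ was 4.87-fold and day 7 NKX2-5- 6.20-fold lower than day 3 CD13+/ROR2+.

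Lactate dehydrogenase is a tetramer of LDHA and LDHB subunits, of which LDHA favours lactate and LDHB prevails in heart. LDHA stood at 75.4 FPKM in hESC, 215 in day 3 CD13+/ROR2+, 240.1 in day 3 CD13-/ROR2-, 14.0 in day 7 NKX2-5+, 29.2 in day 7 NKX2-5-, 158 in day 14 aMHC+ and 233 in day 14 aMHC-. It had the widest swing of the genes above 5 FPKM in all 7 libraries. Day 7 NKX2-5+ was 15.3-fold lower than day 3 CD13+/ROR2+ (log2 ratio -3.85, and -3.19 after median-ratio scaling). Day 14 aMHC+ was 11.2-fold higher than day 7 NKX2-5+ (log2 ratio 3.40, and 2.82 after scaling). LDHB stood at 369.9 FPKM in hESC, 279.7 in day 3 CD13+/ROR2+, 321 in day 3 CD13-/ROR2-, 138 in day 7 NKX2-5+, 117 in day 7 NKX2-5-, 258 in day 14 aMHC+ and 302 in day 14 aMHC-. It was also lowest on day 7 but within a range of 3.17-fold. The share of LDHA in both subunits was 16.9% in hESC, 43.5% in day 3 CD13+/ROR2+, 42.8% in day 3 CD13-/ROR2-, 9.21% in day 7 NKX2-5+, 20.0% in day 7 NKX2-5-, 37.9% in day 14 aMHC+ and 43.5% in day 14 aMHC-. LDHB was thus the larger part in all 7 libraries, most of all in day 7 NKX2-5+, and the LDHA share of the 2 day 14 libraries was near that of the 2 day 3 libraries.

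Lactate crosses the membrane through monocarboxylate transporters. SLC16A3 (MCT4), the exporter of glycolytic cells, stood at 0.585 FPKM in hESC, 4.19 in day 3 CD13+/ROR2+, 4.11 in day 3 CD13-/ROR2-, 0.706 in day 7 NKX2-5+, 3.46 in day 7 NKX2-5-, 29.7 in day 14 aMHC+ and 37.7 in day 14 aMHC-. It was high in the 2 day 14 libraries and below 5 FPKM in the other 5. Day 14 aMHC+ was 42.1-fold higher than day 7 NKX2-5+ (log2 ratio 4.17) and 50.8-fold higher than hESC (log2 ratio 4.28), with few reads behind both low values. SLC16A1 (MCT1), which carries lactate both ways, stood at 28.6 FPKM in hESC, 33.5 in day 3 CD13+/ROR2+, 17.8 in day 3 CD13-/ROR2-, 6.60 in day 7 NKX2-5+, 9.23 in day 7 NKX2-5-, 10.3 in day 14 aMHC+ and 8.02 in day 14 aMHC-. It was highest in hESC and day 3 CD13+/ROR2+, and its day 14 levels were near those of day 7. The share of SLC16A3 in the pair was 2.0% in hESC, 11.1% in day 3 CD13+/ROR2+, 18.8% in day 3 CD13-/ROR2-, 9.67% in day 7 NKX2-5+, 27.3% in day 7 NKX2-5-, 74.3% in day 14 aMHC+ and 82.4% in day 14 aMHC-. BSG, the chaperone of both transporters, was abundant throughout, with 152 FPKM in day 14 aMHC+. Its lowest level as deposited was 95.5 FPKM in day 7 NKX2-5+, an order that depends on the scaling.

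The pyruvate dehydrogenase kinases switch off the enzyme that sends pyruvate into oxidation. PDK1 stood at 2.49 FPKM in hESC, 12.7 in day 3 CD13+/ROR2+, 19.4 in day 3 CD13-/ROR2-, 47.5 in day 7 NKX2-5+, 16.9 in day 7 NKX2-5-, 28.4 in day 14 aMHC+ and 18.6 in day 14 aMHC-. It was lowest in hESC and highest in day 7 NKX2-5+. Day 3 CD13-/ROR2- was 7.80-fold and day 14 aMHC+ 11.4-fold higher than hESC. Day 7 NKX2-5+ stood 3.73-fold above day 3 CD13+/ROR2+, with a log2 ratio of 1.82, and 2.49 after median-ratio scaling. PDK2, the widely expressed form, stood at 2.02 FPKM in hESC, 3.80 in day 3 CD13+/ROR2+, 8.08 in day 3 CD13-/ROR2-, 10.1 in day 7 NKX2-5+, 9.73 in day 7 NKX2-5-, 12.6 in day 14 aMHC+ and 13.1 in day 14 aMHC-. It was lowest in hESC, and its highest library depended on the scaling. After median-ratio scaling PDK2 stood at 12.0 scaled FPKM in day 14 aMHC+ and 14.7 in day 7 NKX2-5+. PDK3 stood at 9.01 FPKM in hESC, 5.66 in day 3 CD13+/ROR2+, 11.0 in day 3 CD13-/ROR2-, 4.51 in day 7 NKX2-5+, 2.72 in day 7 NKX2-5-, 3.83 in day 14 aMHC+ and 3.76 in day 14 aMHC-. It was highest in day 3 CD13-/ROR2- and hESC. The share of PDK1 in the 4 kinases was 18.4% in hESC, 57.3% in day 3 CD13+/ROR2+, 50.4% in day 3 CD13-/ROR2-, 76.2% in day 7 NKX2-5+, 57.4% in day 7 NKX2-5-, 63.3% in day 14 aMHC+ and 52.5% in day 14 aMHC-. PDK3 was the main kinase in hESC, at 66.7%, and PDK1 in each of the other 6 libraries. PDK4, the kinase of the fasted adult heart, was listed at 0 in hESC and day 14 aMHC+ and reached at most 0.204 FPKM. PDHA1 and PDHB, the subunits of the enzyme itself, had narrow ranges, PDHA1 from 9.49 FPKM in day 7 NKX2-5- to 24.0 FPKM in day 7 NKX2-5+ and PDHB from 28.8 FPKM in day 7 NKX2-5- to 69.6 FPKM in day 14 aMHC-.

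To count the genes that differed in size, a gene was called higher or lower where log2 of the ratio of (FPKM + 1) was at least 2 in size, 4-fold on that scale, and the higher library had 5 FPKM or more. This scale understates the difference of low genes, and the folds given above are plain quotients. The share of all genes past the same limits, among those with at least 5 FPKM in either library, is given beside each count. It is a size rule with no error behind it.

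On day 3, CD13+/ROR2+ had 0 of the 26 genes that reached 5 FPKM in either library called higher than CD13-/ROR2-, against 3.69% of 5875 genes in all. It had 1 called lower, against 2.54%. That gene is ENO2, whose day 3 CD13+/ROR2+ level was 5.24 FPKM, against 24.8 FPKM in CD13-/ROR2-. SLC2A1 came next, with 20.9 FPKM in CD13+/ROR2+, against 80.0 FPKM in CD13-/ROR2- (log2 ratio -1.89). Against hESC, day 3 CD13+/ROR2+ had 0 of 25 called in either direction, against 4.5% of all genes higher and 2.54% lower, and LDHA had a log2 ratio of 1.50. Day 3 CD13-/ROR2- had 1 of 26 called higher than hESC, against 1.45% of all genes, and 0 lower, against 1.17%. It is PDK1, and LDHA had a log2 ratio of 1.66. At the smaller size of 2-fold, 8 of the 26 were higher in CD13-/ROR2- than in hESC, against 8.41% of all genes, and 0 were lower, against 7.12%. The median log2 ratio over the 35 genes was -0.14 for the day 3 pair, against 0.03 over all genes with 5 FPKM in either library. Here and below, the median over the 35 genes keeps those under 5 FPKM, so the 2 medians rest on unlike sets. The median over the 35 genes is given first in what follows. This median was 0.17 for CD13+/ROR2+ over hESC, against -0.01, and 0.40 for CD13-/ROR2- over hESC, against -0.02. These 3 comparisons share libraries and are not independent.

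On day 7, NKX2-5+ had 2 of 23 genes called higher than NKX2-5- (ENO3 and PGAM2), against 2.03% of 4981 genes in all, and 1 lower (SLC2A1), against 5.42%. The median log2 ratio was 0.24 over the 35 genes, against -0.47 over all genes with 5 FPKM in either library. Against day 3 CD13+/ROR2+, day 7 NKX2-5+ had 2 of 28 called higher (ENO3 and PGAM2), against 4.38% of 5633 genes, and 6 lower (SLC2A3, ALDOC, ENO1, PKM2, LDHA and SLC16A1), against 9.09%. The 6 were between 4.87-fold (PKM2) and 15.3-fold (LDHA) lower. The median log2 ratio was -0.27 over the 35 genes and -0.77 over all genes with 5 FPKM in either library. The ratio of the scaling factors of these libraries was -0.69 on the log2 scale. With that scaling, 3 were called higher (ENO3, PGAM2 and PDK1), against 6.84% of all genes, and 1 lower (LDHA), against 4.77%. LDHA was then at 20.4 scaled FPKM in day 7 NKX2-5+ and 195 in day 3 CD13+/ROR2+. Day 7 NKX2-5- had 0 of 27 called higher than day 3 CD13+/ROR2+, against 5.35% of 5939 genes, and 4 lower (SLC2A3, ALDOC, PKM2 and LDHA), against 3.69%. After scaling these counts were 0 higher, against 6.36% of all genes, and 4 lower, against 3.21%. Both day 7 comparisons use the same day 3 library, so their counts are not independent. The liver and yolk sac marker list summed to 327 FPKM in day 7 NKX2-5-, against 28.7 in day 3 CD13+/ROR2+, and the part of such cells was not tested.

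On day 14, aMHC+ had 0 of 28 genes called higher than aMHC-, against 0.648% of 5712 genes in all, and 0 lower, against 0.35%. With median-ratio scaling PGAM2 was called higher, against 0.789% of all genes. Against day 7 NKX2-5+, day 14 aMHC+ had 9 of 28 called higher (SLC2A1, SLC2A3, HK2, ALDOC, PGK1, ENO1, ENO2, LDHA and SLC16A3), against 7.68% of 5310 genes, and 0 lower, against 0.829%. The 9 were between 4.73-fold (PGK1) and 42.1-fold (SLC16A3) higher. This comparison and that of day 7 with day 3 share the day 7 NKX2-5+ library, so their ratios are not independent. After scaling, with a ratio of the factors of 0.62 on the log2 scale, 6 were called higher (SLC2A3, ALDOC, ENO1, ENO2, LDHA and SLC16A3), against 3.61% of all genes, and 0 were lower, against 1.92%. The median log2 ratio over the 35 genes was 0.87, against 0.73 over all genes with 5 FPKM in either library. After scaling it was 0.26, against 0.19. PFKM, PGAM2, PDK2 and PDHA1 had log2 ratios between -0.08 and 0.29 before scaling and between -0.67 and -0.28 after it, so that PFKM and PDK2 turned from higher to lower. This is also the comparison in which the fibroblast marker sum was 347 FPKM in day 14 aMHC+ and 43.7 in day 7 NKX2-5+, and the depth relative to hESC 1.99 in day 14 aMHC+ and 0.602 in day 7 NKX2-5+, and their part was not tested.

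**Figure D4:**
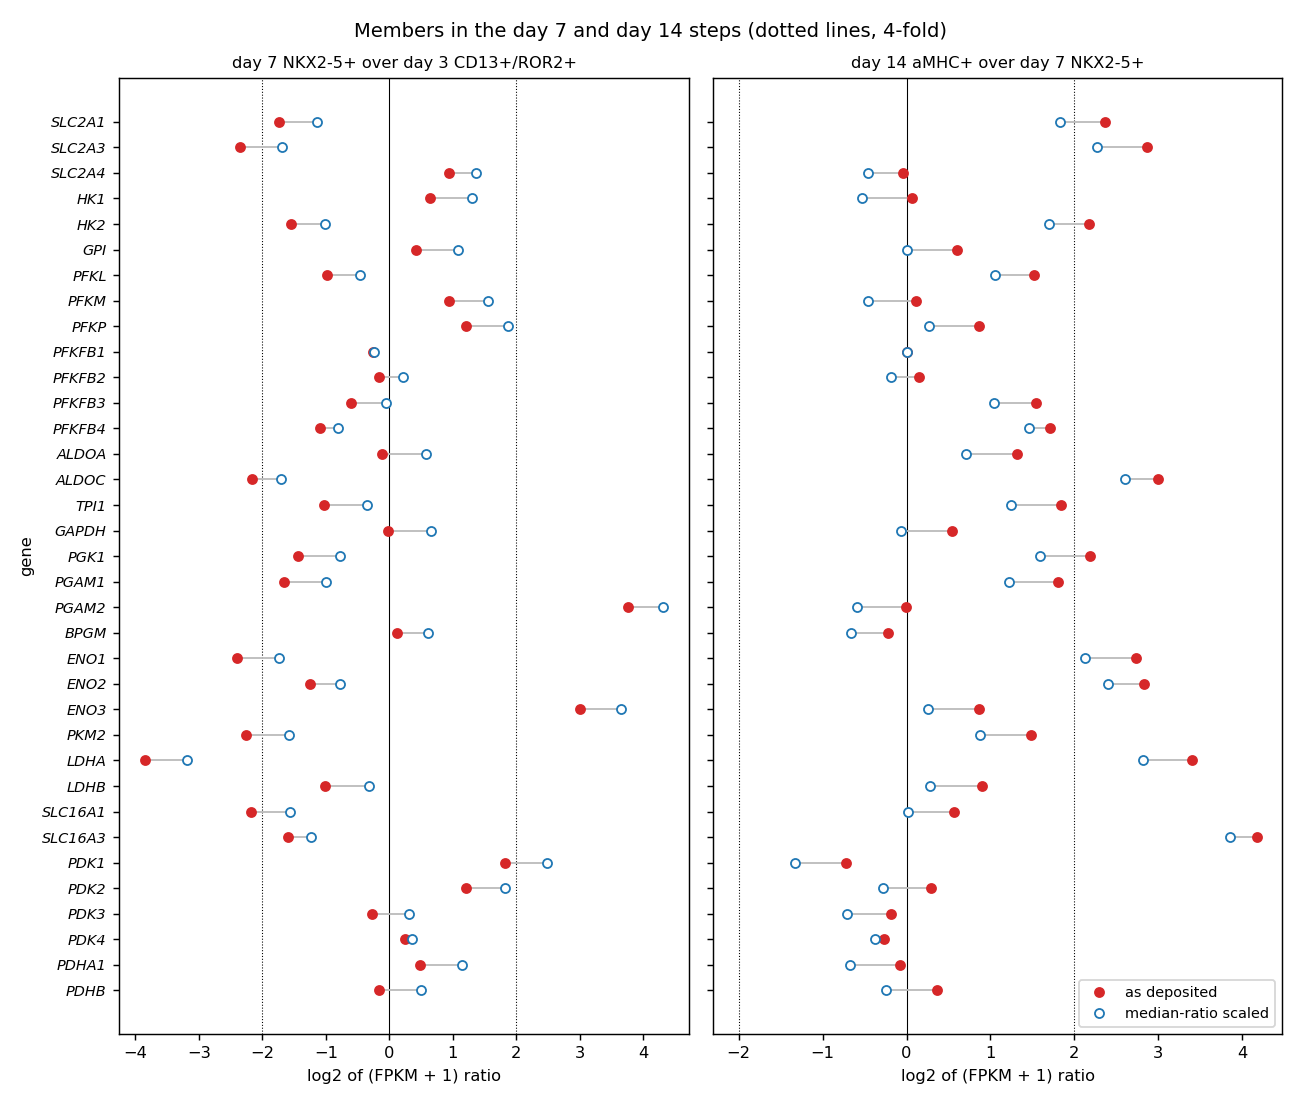
Log2 ratios of (FPKM + 1) for the 35 genes in day 7 NKX2-5+ over day 3 CD13+/ROR2+ (left) and day 14 aMHC+ over day 7 NKX2-5+ (right), as deposited (filled) and after median-ratio scaling (open), with dotted lines at 4-fold. LDHA is at -3.85 on the left and 3.40 on the right, and ENO3 and PGAM2 are past 4-fold on the left alone.

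From hESC to the cardiomyocyte library, day 14 aMHC+ had 6 of 29 genes called higher than hESC (PFKP, PGAM2, ENO3, SLC16A3, PDK1 and PDK2), against 8.76% of 6382 genes, and 0 lower, against 6.57%. After scaling the counts were 6 higher, against 9.04% of all genes, and 0 lower, against 6.37%. The median log2 ratio was 0.74 over the 35 genes and 0.02 over all genes with 5 FPKM in either library. ALDOA had 350.2 FPKM in day 14 aMHC+ and 130.4 FPKM in hESC, a log2 ratio of 1.42. LDHA had 158 FPKM in day 14 aMHC+ and 75.4 in hESC, and SLC2A3 151 in day 14 aMHC+ and 170.1 in hESC. The stem cell and cardiomyocyte libraries were thus within 4-fold of each other for these 3 genes.

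Other genes of the pathway were read from 10 lists with 118 genes in the table. HK3, PGK2 and LDHC were under 0.1 FPKM in all 7 libraries. LDHD, which oxidises D-lactate, reached 5.21 FPKM in day 3 CD13-/ROR2-, against 0.527 in hESC. The difference was past the size rule and was not called after median-ratio scaling. As 5.21 FPKM lies close to the minimum of 5 FPKM, the loss of the call need not mean a smaller difference. Of the 7 further genes of the pyruvate dehydrogenase complex and its phosphatases, 4 reached 5 FPKM in each of the 9 comparisons. None was called, against 0.35% to 9.09% of all genes in either direction, so these few genes are not set apart from others. In day 14 aMHC+ over day 7 NKX2-5+, 5 of the 54 listed genes at 5 FPKM or more in either library were called higher, against the 7.68% of all genes given above, which is near the same share, and 0 lower, against 0.829%. The other 8 comparisons had between 0 and 4 called higher, against 0.648% to 8.76% of all genes, and between 0 and 6 lower, against 0.35% to 9.09%. Day 14 aMHC+ over hESC had 2 of 56 higher, against 8.76%, and 6 lower, against 6.57%. Day 7 NKX2-5+ over day 3 CD13+/ROR2+ had 4 of 53 higher, against 4.38%, and 5 lower, against 9.09%. The 5 called higher in day 14 aMHC+ over day 7 NKX2-5+ were 4 of 18 hypoxia targets outside glycolysis, 11 of which reached 5 FPKM, and EGLN3, an oxygen-sensing prolyl hydroxylase. DDIT4 had 28.0 FPKM in day 14 aMHC+ and 2.13 in day 7 NKX2-5+, and BNIP3 had 24.3 FPKM in day 14 aMHC+ and 2.18 in day 7 NKX2-5+. P4HA1 and P4HA2, which hydroxylate collagen, were the other 2, and EGLN3 was no longer called after scaling. The 18 targets summed to 115 FPKM in hESC, 109 in day 3 CD13+/ROR2+, 199 in day 3 CD13-/ROR2-, 51.6 in day 7 NKX2-5+, 69.0 in day 7 NKX2-5-, 217 in day 14 aMHC+ and 260.0 in day 14 aMHC-. The 2 day 7 sums are the lowest and the 2 day 14 sums the highest. Not every target followed the sums. VEGFA had 8.82 FPKM in day 7 NKX2-5+ and 12.0 in day 7 NKX2-5-, against 6.24 in hESC and 4.77 in day 3 CD13+/ROR2+. HIF1A, the oxygen-sensitive factor itself, which is controlled mainly through its protein, lay between 24.2 and 38.3 FPKM. EPAS1, which encodes the related HIF-2 alpha, had 12.8 FPKM in day 7 NKX2-5- and was under 1 FPKM in every other library. Oxygen was not measured in these files, and a part of it in the levels was not tested.

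Among 24 regulators of energy metabolism, 12 reached 5 FPKM in day 7 NKX2-5+ or day 3 CD13+/ROR2+. Day 7 NKX2-5+ had 3 of them called higher than day 3 CD13+/ROR2+, against 4.38% of all genes, and 2 called lower, against 9.09%. After scaling 3 were higher, against 6.84%, and 1 lower, against 4.77%. PPARGC1A, a coactivator of mitochondrial genes, had 9.42 FPKM in day 7 NKX2-5+ and 0.166 in day 3 CD13+/ROR2+. ESRRG, a nuclear receptor of heart metabolism, had 6.43 FPKM in day 7 NKX2-5+ and 0.649 in day 3 CD13+/ROR2+. MYC, a growth factor-driven activator of glycolytic genes, had 1.32 FPKM in day 7 NKX2-5+ and 26.3 in day 3 CD13+/ROR2+, and stood at 1.88 FPKM in day 14 aMHC+. The part of these regulators in the levels of the 35 genes was not tested. TXNIP, which limits glucose uptake, stood at 15.1 FPKM in hESC, 1.27 in day 3 CD13+/ROR2+, 0.525 in day 3 CD13-/ROR2-, 8.87 in day 7 NKX2-5+, 8.11 in day 7 NKX2-5-, 24.4 in day 14 aMHC+ and 32.5 in day 14 aMHC-. It was lowest in the 2 day 3 libraries.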

How the data were processed

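RNA of 7 sorted or undifferentiated cell samples was sequenced as single reads from TruSeq RNA libraries, per the labels' protocols. The authors deposited 1 table of FPKM per gene symbol, made with Cufflinks on hg19, per the submitters' processing notes. For the aligner, the annotation and the treatment of reads shared by several genes, nothing is stated in the labels or notes used. There are 23368 genes in it. Of these, 106 have blank cells and were left out, and 3537 are at 0 in all 7 libraries. FPKM keeps no absolute depth. Relative depth was read from the steps between low values under 0.3 FPKM, and values under 1 FPKM rest on few reads. A listed 0 can be a failed estimate.

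Ratios were computed as log2 of (FPKM + 1) in 1 library over (FPKM + 1) in the other, in 9 comparisons, with a size rule of 4-fold and 5 FPKM. With 1 library per group no test was possible. Isozyme shares and percentages of GAPDH are ratios within a library and do not depend on its scaling. Alternatives were pseudocounts of 0.1 and 5 FPKM, no minimum, scaling to the median ratio (7780 genes that exceed 1 FPKM in every library), equal sums after 1712 small RNA and histone symbols were dropped, a 2-fold rule, and leaving out genes listed at 0. The members and lists were chosen with earlier results of these data known. All 35 members are named. Of the other lists, at most 3 genes with the largest ratios are named per list and comparison. Regulator, hypoxia target or tissue-form genes named beyond these were chosen after their values were seen. Promoter motifs were searched on both strands in RefSeq sequence of GRCh38.p14. Python 3.11.15, pandas 2.3.3 and numpy 2.4.6 were used.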

Additional observations from a re-analysis of the deposited data

How the results depend on the processing

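With 1 library per group, no library could be left out and no error stands behind a count. No paired analysis was possible because each group has 1 library and no result comes from a test. No member called by the size rule turned its direction under any of the 7 alternatives, and leaving out the minimum or the genes listed at 0 changed none of the 9 counts. Of 32 calls, 8 fell under the size rule with median-ratio scaling, 14 with a pseudocount of 5 FPKM and 12 with small RNA and histone genes left out at equal sums. A pseudocount of 0.1 FPKM gave 1 call in day 3 CD13+/ROR2+ over hESC and 1 in the day 14 pair. A pseudocount of 5 FPKM gave 0 in the day 3 pair, 0 in day 3 CD13-/ROR2- over hESC, 1 in the day 7 pair and 4 in day 14 aMHC+ over day 7 NKX2-5+. Median-ratio scaling gave 4 in day 7 NKX2-5+ over day 3 CD13+/ROR2+ (3 higher, against 6.84% of all genes, and 1 lower, against 4.77%). It gave 1 in the day 14 pair (1 higher, against 0.789%, and 0 lower, against 0.385%). Equal sums without small RNA and histone genes gave 0 in the day 3 pair, 1 in day 3 CD13+/ROR2+ over hESC, 4 in day 7 NKX2-5+ over day 3 CD13+/ROR2+, 1 in the day 14 pair and 4 in day 14 aMHC+ over day 7 NKX2-5+. The share of all genes under the pseudocounts and equal sums is not given here. Counts under those settings are therefore not read as a result about the members. The 2-fold rule gave 4 in the day 3 pair (0 higher, against 9.69% of all genes, and 4 lower, against 9.24%). Over hESC it gave 4 in day 3 CD13+/ROR2+ (3 higher, against 10.5%, and 1 lower, against 8.77%) and 8 in day 3 CD13-/ROR2- (8 higher, against 8.41%, and 0 lower, against 7.12%). It gave 7 in the day 7 pair (5 higher, against 5.64%, and 2 lower, against 18.3%). Over day 3 CD13+/ROR2+ it gave 18 in day 7 NKX2-5+ (5 higher, against 8.43%, and 13 lower, against 38.3%) and 14 in day 7 NKX2-5- (2 higher, against 11.0%, and 12 lower, against 15.3%). It gave 1 in the day 14 pair (1 higher, against 1.73%, and 0 lower, against 1.16%). Day 14 aMHC+ had 15 over day 7 NKX2-5+ (15 higher, against 35.4%, and 0 lower, against 3.13%) and 16 over hESC (14 higher, against 22.3%, and 2 lower, against 18.6%).

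Adding 1 FPKM to every isozyme gave PFKFB3 shares of 32.6% in hESC, 49.1% in day 3 CD13+/ROR2+, 47.3% in day 3 CD13-/ROR2-, 48.3% in day 7 NKX2-5+, 66.1% in day 7 NKX2-5-, 60.4% in day 14 aMHC+ and 73.4% in day 14 aMHC-. It gave an SLC16A3 share of 18.3% in day 7 NKX2-5+. Leaving out isozymes under 5 FPKM in a library put HK2 at 0 in both day 7 libraries, PGAM2 at 0 in day 7 NKX2-5- and SLC16A3 at 0 in the day 3 and day 7 libraries. It put PFKP at 64.8% in hESC and 82.7% in day 7 NKX2-5-. PFKFB3 was then the only form left (100%) in the day 3 libraries, day 7 NKX2-5- and the day 14 libraries, with no value in hESC and day 7 NKX2-5+. PDK1 was then at 0 in hESC, 69.2% in day 3 CD13+/ROR2+, 82.4% in day 7 NKX2-5+, 63.4% in day 7 NKX2-5-, 69.3% in day 14 aMHC+ and 58.7% in day 14 aMHC-. The other 110 values of these 10 isozymes, 1 per family, moved by at most 5 percentage points. Of the values of the further isozymes of these families, 192 did and 40 moved by more. Among those printed, the PFKFB2 share in hESC was 39.8% with 1 FPKM added, and the PDK3 share in hESC was 57.1% with 1 FPKM added and 100% without forms under 5 FPKM. The cause of these shifts lies in the added value or the isozymes left out. Differences of genes near 1 FPKM were not resolved at this depth.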

Other observations

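TKT, the transketolase of the pentose phosphate pathway, stood at 135 FPKM in hESC, 50.3 in day 3 CD13+/ROR2+, 77.4 in day 3 CD13-/ROR2-, 6.61 in day 7 NKX2-5+, 35.5 in day 7 NKX2-5-, 23.0 in day 14 aMHC+ and 40.2 in day 14 aMHC-. TKT was called lower in day 7 NKX2-5+ relative to day 3 CD13+/ROR2+, where it was 1 of 6 pentose phosphate genes at 5 FPKM, against 9.09% of all genes called lower. It was also called lower in day 14 aMHC+ relative to hESC, as 1 of 5, against 6.57%. PGLS, the lactonase of this pathway, had 13.7 FPKM in day 14 aMHC+ and 8.00 in hESC. The 7 pentose phosphate genes summed to 111 FPKM in day 14 aMHC+ and 283 FPKM in hESC. In the glycerol and serine branches, 8 of 12 genes reached 5 FPKM in day 14 aMHC+ or hESC. Of these, 3 were called lower in day 14 aMHC+ than in hESC, against 6.57% of all genes, and 0 higher, against 8.76%. PSAT1, which makes phosphoserine, had 5.41 FPKM in day 14 aMHC+ and 53.9 in hESC. PHGDH, the entry enzyme of serine synthesis, had 7.39 FPKM in day 14 aMHC+ and 48.3 in hESC. SHMT2, a mitochondrial enzyme that passes on the carbon of serine, was the other called gene. PSPH, the last enzyme of serine synthesis, had 8.36 FPKM in day 14 aMHC+ and 10.1 in hESC.

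PYGM, the muscle glycogen phosphorylase, stood at 0.659 FPKM in hESC, 0.0744 in day 3 CD13+/ROR2+, 0.719 in day 3 CD13-/ROR2-, 9.18 in day 7 NKX2-5+, 1.08 in day 7 NKX2-5-, 8.20 in day 14 aMHC+ and 9.24 in day 14 aMHC-. It was high in day 7 NKX2-5+ and in both day 14 libraries and low in the other 4. Among 14 glycogen genes, of which 9 or 10 reached 5 FPKM in each of these comparisons, it was the 1 called higher in day 7 NKX2-5+ over day 7 NKX2-5-, against 2.03% of all genes, in day 7 NKX2-5+ over day 3 CD13+/ROR2+, against 4.38%, and in day 14 aMHC+ over hESC, against 8.76%.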
